A study of Arabidopsis thaliana with 9 samples.

Results

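Leaves kept with BrvC for 48 h were compared with leaves kept with BrvC for 6 h, on 3 arrays each, out of 9 arrays in the series. BrvC is a brevicompanine, a member of a group of fungal alkaloids. Both groups were leaves of the Col-0 ecotype of Arabidopsis thaliana, 30 days old, which were detached from plants raised in soil for 4 weeks. The days there lasted 16 h at 21 °C and the nights 8 h at 19 °C. A sample was 10 to 15 leaves pooled and immersed in 1x MS medium with 50 µM BrvC, and both incubations were in the dark. The remaining 3 arrays, which did not enter the comparison, were controls in MS medium with 0.05% DMSO, for which the labels do not say whether they were kept for 6 h or 48 h. The 6 h and the 48 h leaves differed in their exposure to BrvC, in their hours in the dark and off the plant, and possibly in the time of day, and these cannot be told apart here. All genes that the probe-gene table pairs singly with an array entry were members of the comparison, 16550 genes from 16722 of 38408 entries, with the entry of the highest mean over all 9 arrays for each gene. Of these genes 1762 carried a symbol and 14788 were known by a locus name alone.

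A leaf cut from the plant and kept in darkness receives no fixed carbon. As background, such leaves first use starch and sugars, and then break down proteins, branched-chain amino acids and lipids, partly through autophagy, in which ATG8 proteins coat the membrane that encloses cell contents. Genes of photosynthesis and chlorophyll synthesis are in general controlled by light and sugars. Chloroplast genes are read by a plastid-encoded RNA polymerase, with rpoA, rpoB, rpoC1 and rpoC2 as its core subunits, and by a nuclear-encoded polymerase that serves mainly genes of the gene expression machinery.

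The value of a gene was a log2 signal, so that a difference of 1 is 2-fold. Arrays of the same time correlated with r of 0.989 to 0.993 at 6 h and 0.986 to 0.989 at 48 h over all genes, against 0.954 to 0.962 between the times. The first principal component of the 6 arrays held 70.3% of the variance and set the times apart (scores of -42.4 to -41.0 at 6 h and 39.2 to 45.0 at 48 h). The second held 10.3% and set replicate 3 of 48 h (30.2) apart from the other 48 h arrays (-10.9 and -21.3). The labels call the replicates biological without saying how they were kept separate. P-values set a difference against the spread between these samples, which limma moderates over all genes. Which sources of variation that spread holds is therefore not known.

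By limma with Benjamini-Hochberg adjustment at 0.05, 3914 genes differed between the times, or 23.6% of those tested. Of these, 1916 were higher at 48 h (11.6%) and 1998 were lower (12.1%). Differences of at least 2-fold were found for 744 higher and 834 lower genes. Beyond 8-fold the counts were uneven, with 53 genes higher and 25 lower, and beyond 32-fold 4 were higher and 0 lower. The 3 arrays of one time lay wholly apart from the 3 of the other for 6178 genes (37.3%), and 3887 of the genes called were among them. Without replicate 3 of 48 h 3572 genes were called, of which 3258 had been called with it. Calls were rarer among dim genes, from 1.60% in the lowest of 5 equal bins of mean level to 39.2% in the bin next to the highest. In the brightest bin more genes were higher (727) than lower (490), and in the middle bin more were lower (630) than higher (423).

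**Figure D1:**
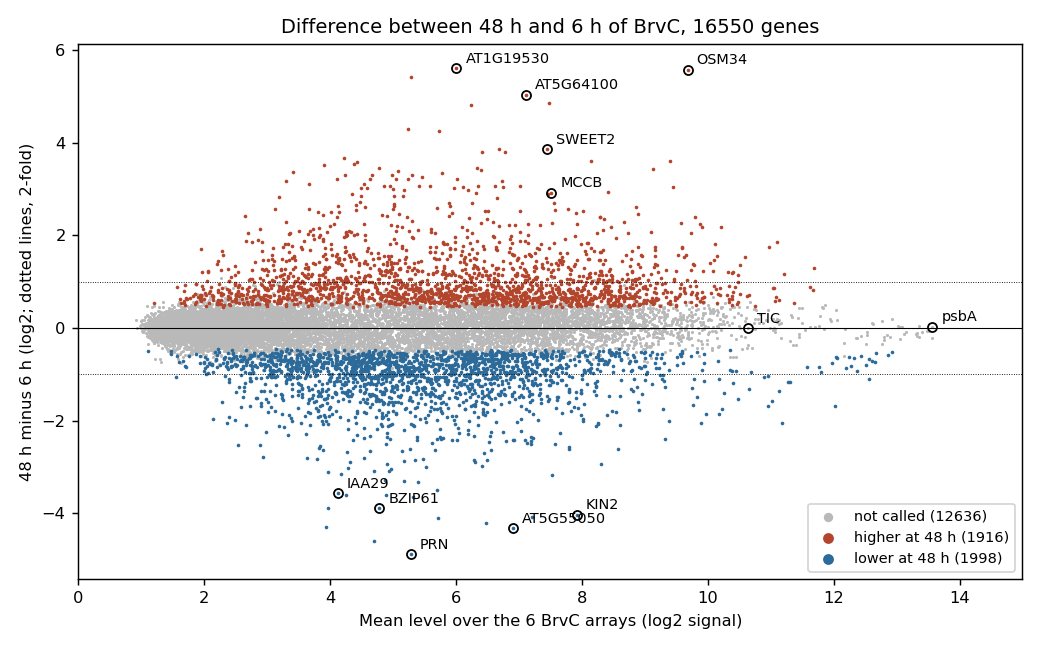
Each point is 1 of 16550 genes, with its mean level over the 6 BrvC arrays (log2 signal) on the horizontal axis and the difference of 48 h minus 6 h (log2) on the vertical axis. Red and blue points passed the test (1916 higher and 1998 lower), grey points did not (12636), and calls are few among genes with a mean level below about 2.

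OSM34, an osmotin-like protein of the pathogenesis-related class, rose most among genes that carry a symbol. Its log2 values were 6.84, 6.78 and 7.04 in the 6 h arrays and 12.44, 12.37 and 12.59 in the 48 h arrays, a 47.7-fold difference (log2 5.58, SE 0.16, limma adjusted p = 1.86e-08). The controls lay at 11.58, 12.11 and 11.76, so that the 6 h arrays were the low ones of the 9. SWEET2, a sugar transporter of the vacuole membrane, was at 5.38, 5.35 and 5.79 at 6 h and 8.80, 9.30 and 10.02 at 48 h (log2 3.87, SE 0.27, limma adjusted p = 2.87e-06). Its controls, from 8.82 to 10.10, overlapped with the 48 h arrays. For BGLU46, a beta-glucosidase that acts on the glucosides of lignin precursors, values were 4.90, 4.51 and 4.82 at 6 h and 8.60, 8.66 and 8.55 at 48 h (3.86, SE 0.16, adjusted p = 1.18e-07), with controls from 8.64 to 9.54. CHAT, the acetyltransferase that makes the leaf volatile hexenyl acetate, rose by 3.31 (SE 0.17, adjusted p = 5.16e-07) from 3.67, 3.38 and 3.89 to 7.08, 6.84 and 6.96, the latter above its controls (6.25 to 6.73). GH3.17, which conjugates the auxin indoleacetic acid to glutamate, was nearly the same in the 48 h arrays (6.33, 6.31 and 6.33) and 9.89 times lower at 6 h (2.78, 3.29 and 2.98), with controls from 6.55 to 7.31. In all 5 of these genes the 48 h arrays lay far nearer to the control arrays than the 6 h arrays did.

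The next rises were in PRX52, MCCB and MSRB8. PRX52, a cell wall peroxidase, read 6.75, 6.95 and 7.11 at 6 h and 9.69, 9.86 and 10.10 at 48 h, with an increase of 2.94 (SE 0.17, adjusted p = 8.91e-07), and its 48 h arrays exceeded the controls (8.07 to 8.74). MCCB, a subunit of the methylcrotonyl-CoA carboxylase of leucine breakdown, rose by 2.93 (SE 0.18, adjusted p = 1.35e-06) from 6.03, 6.23 and 5.90 to 9.18, 9.10 and 8.65, which was below its controls (9.42 to 10.06). MSRB8, which repairs oxidised methionine, was dim at 6 h (1.22, 1.84 and 2.27) and read 5.10, 4.59 and 4.09 at 48 h (2.82, SE 0.29, adjusted p = 4.34e-05). The groups did not overlap in any of these genes, which was a condition for naming them.

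PRN, a pirin with a cupin fold, had the largest fall of all genes, with values of 7.85, 7.46 and 7.88 at 6 h and 2.69, 2.93 and 2.92 at 48 h (log2 -4.89, 29.6-fold, SE 0.17, limma adjusted p = 4.54e-08). The 48 h arrays were within about the range of the controls, 2.83 to 3.25. KIN2, a small protein induced by cold and abscisic acid, read 9.86, 9.52 and 10.41 at 6 h and 5.89, 5.79 and 6.04 at 48 h (-4.02, SE 0.22, adjusted p = 5.20e-07), and its controls ran from 5.35 to 6.28. BZIP61, a leucine zipper transcription factor, fell by 3.89 (SE 0.18, adjusted p = 2.60e-07) from 6.77, 6.56 and 6.85 to 2.62, 3.14 and 2.74. Its controls lay between the times, at 5.57, 4.51 and 6.11, closer to 6 h than to 48 h. IAA29, an Aux/IAA repressor of the auxin response, was at 5.83, 6.03 and 5.85 and then 2.50, 2.11 and 2.42 (-3.56, SE 0.17, adjusted p = 2.60e-07), the latter within about the range of the controls (2.25 to 2.70).

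The wall genes XTH33, a xyloglucan endotransglucosylase, and EXPA8, an expansin, followed with -3.33 (SE 0.18) and -3.27 (SE 0.20). XTH33 read 6.95, 6.89 and 7.33 at 6 h and 3.93, 3.78 and 3.48 at 48 h, and EXPA8 6.22, 6.41 and 6.89 and 3.13, 3.08 and 3.50. In both the 48 h arrays lay below every control array, the lowest of which read 4.80 for XTH33 and 4.37 for EXPA8. NdhL, a nuclear-encoded subunit of the chloroplast NADH dehydrogenase-like complex, fell by 3.30 (SE 0.18, adjusted p = 5.20e-07), from 6.73, 6.63 and 7.13 to 3.61, 3.60 and 3.38, with controls from 4.26 to 4.50. HCF101, which delivers iron-sulfur clusters to photosystem I, was at 6.65, 6.84 and 6.82 at 6 h and 3.88, 3.82 and 4.08 at 48 h (-2.84, SE 0.16, adjusted p = 5.84e-07), and its controls were at 4.65, 3.84 and 4.14.

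**Figure D2:**
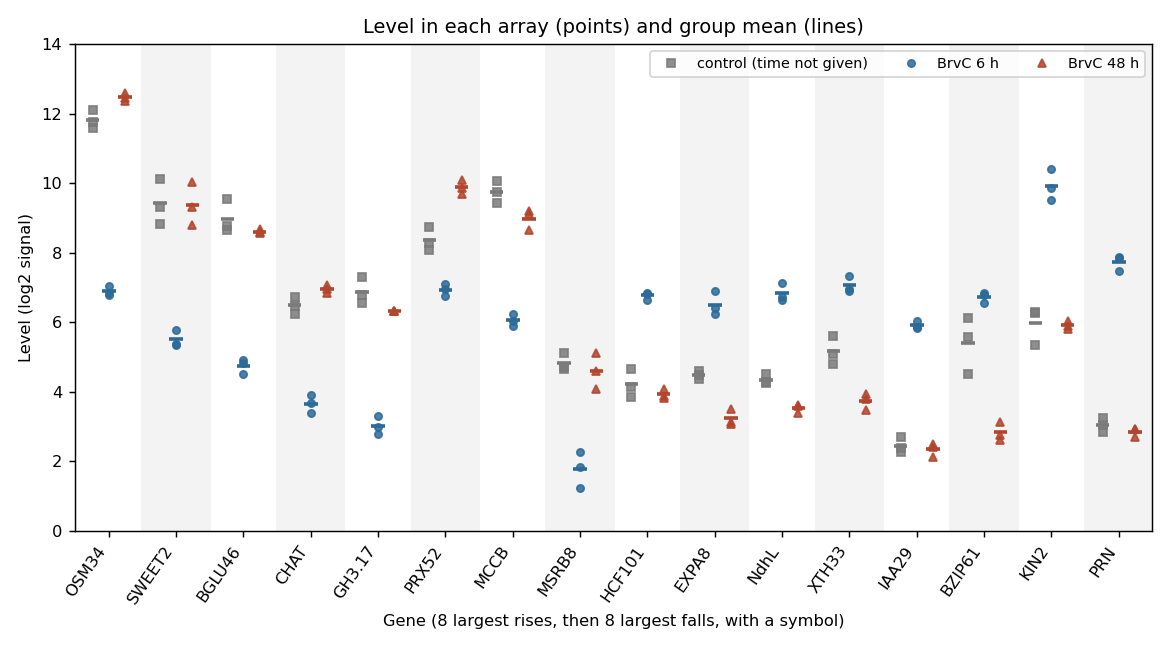
The log2 signal in every array (points) and the group mean (short lines) for the 8 largest rises, OSM34 to MSRB8, and the 8 largest falls, HCF101 to PRN, among genes with a symbol. Blue circles are BrvC 6 h, red triangles BrvC 48 h and grey squares the controls, whose time is not given, and in BZIP61 the controls lie nearer to the 6 h arrays.

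The 6 largest rises of genes known by locus alone lay between 4.29 and 5.61. AT1G19530 read 3.05, 3.59 and 2.97 at 6 h and 8.99, 9.06 and 8.38 at 48 h, a 48.8-fold increase (log2 5.61, SE 0.23, limma adjusted p = 9.47e-08), with controls between the times (6.22 to 6.92). AT4G39675 rose by 5.42 (SE 0.18) from 2.61, 2.26 and 2.87 to 8.07, 7.99 and 7.95, and its controls, from 4.34 to 4.98, again lay between. AT5G64100 and AT5G64110 neighbour each other in the reference table. AT5G64100 was at 5.17, 4.51 and 4.07 and then 10.15, 9.92 and 8.81 (5.04, SE 0.35), and AT5G64110 at 3.02, 3.08 and 3.16 and then 7.32, 7.32 and 7.49 (4.29, SE 0.15). AT1G62760 (4.86, SE 0.18) and AT5G26280 (4.81, SE 0.23) completed the 6 largest. In AT5G26280 the 48 h arrays (9.13, 8.51 and 8.30) stood well above the controls (4.67 to 5.87) as well as above 6 h (4.05, 3.51 and 3.95), whereas those of AT1G62760 (9.76, 10.04 and 9.95) were close to the highest controls (8.61 to 9.92). The 6 had adjusted p of 2.52e-06 or lower.

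Among the falls of genes known by locus alone, AT4G20970 read 6.77, 7.06 and 7.14 at 6 h and 2.16, 2.21 and 2.82 at 48 h (-4.59, SE 0.20, limma adjusted p = 1.95e-07), and its controls were at 2.26, 2.21 and 1.95. AT5G55050 fell by 4.33 (SE 0.16) from 9.14, 9.05 and 9.01 to 4.69, 4.60 and 4.93, below its controls (5.48 to 6.06). AT4G30650 was at 5.92, 5.72 and 6.61 at 6 h and at 1.84, 1.74 and 1.76 at 48 h (-4.30, SE 0.22), where its controls also were (1.69 to 1.78). AT5G44568 (-4.21, SE 0.15), AT1G10585 (-4.10, SE 0.17) and AT3G50340 (-4.08, SE 0.16) followed, with adjusted p of 9.47e-08 or lower. At 48 h AT1G10585 lay at 3.64, 3.79 and 3.56, about where its controls did (3.53 to 4.04), and AT5G44568 at 4.48, 4.22 and 4.40, below them (5.13 to 5.45).

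In the lists that follow, members count as measured only if a listed name matched a gene in the comparison. The shares given for all genes are not matched for level. From the middle to the brightest of the 5 bins of mean level, 31.8%, 39.2% and 36.8% of genes were called. The part of level in the share of a list was not tested. Autophagy genes were higher at 48 h, and 11 of 59 names in their list had matched. Of 11 measured members, 9 rose and 0 fell (11.6% of all genes rose), and their median difference was 1.08, against 0.02 over all genes. The list held 9 array entries of the ATG8 family, whose proteins are attached to the autophagosome membrane, with ATG3, the enzyme that attaches them, and AT5G66930, which the reference table also names ATG101, a subunit of the complex that starts autophagy. ATG8H read 6.43, 6.19 and 6.74 at 6 h and 8.56, 8.31 and 7.91 at 48 h (1.81, SE 0.21, limma adjusted p = 8.70e-05), with controls from 8.28 to 9.06. APG8A was at 5.14, 4.65 and 5.61 and then 6.90, 7.003 and 6.64 (1.71, SE 0.23), and ATG8B at 7.39, 6.86 and 7.37 and then 8.59, 8.62 and 8.46 (1.35, SE 0.18). The groups of these 3 genes did not overlap, and each 48 h array was at least 1 log2 unit above every 6 h array in ATG8H and APG8A. ATG101 rose by 1.11 (SE 0.16), ATG8E by 1.08, APG8H by 0.97, ATG8G by 0.95 and ATG8F by 0.56. ATG8C differed by 1.21 (SE 0.35, adjusted p = 0.0269), but its 48 h arrays were spread over 6.96, 7.60 and 8.59, and without replicate 3 of 48 h it was not called. ATG3 (0.45, adjusted p = 0.051) and ATG8D (0.41, adjusted p = 0.104) missed the threshold, with intervals of 0.12 to 0.78 and 0.04 to 0.77.

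Of 5 measured carbon starvation markers, 4 rose and 1 fell (11.6% of all genes rose and 12.1% fell). MCCB, described above, led them. ETFQO, which passes electrons from amino acid breakdown to the respiratory chain, was at 8.82, 8.83 and 8.59 at 6 h and 10.92, 10.88 and 11.17 at 48 h (2.24, SE 0.16, limma adjusted p = 3.25e-06), and its controls were at 11.10, 10.97 and 11.24. AKINBETA1, a regulatory subunit of the energy-sensing SnRK1 kinase, rose by 1.37 (SE 0.15) to 10.55, 10.30 and 10.56, below its controls (11.13 to 11.25). D2HGDH, the hydroxyglutarate dehydrogenase of lysine breakdown, differed by 0.64 (adjusted p = 0.0399), a call that was lost with the replicate block, in the fit to all 9 arrays and without any 1 of 5 arrays. EXO, a growth-related wall protein, fell by 1.57 (SE 0.18) from 7.27, 6.98 and 7.08 to 5.72, 5.64 and 5.25, below its controls (6.52 to 6.99).

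In the list of proteolysis and amino acid breakdown, 7 of 18 measured members rose and 2 fell, with a median of 0.31. The share called was 50%, against 23.6% of all genes. The bifunctional first enzyme of lysine breakdown, LKR/SDH (AT4G33150), read 7.77, 7.90 and 8.11 at 6 h and 11.13, 10.97 and 10.83 at 48 h (3.05, SE 0.16, limma adjusted p = 5.20e-07). Its controls, at 11.36, 11.11 and 11.04, overlapped with the 48 h arrays. The asparaginase ASPGB1 was at 3.87, 4.11 and 4.43 and then 5.91, 6.50 and 6.95 (2.32, SE 0.25). The methionine lyase MGL rose by 1.84 (SE 0.17) and the aldehyde dehydrogenases ALDH7B4 and ALDH6B2, the latter of valine breakdown, by 1.81 and 1.75. In ALDH7B4 the 48 h arrays were at 11.39, 11.05 and 10.65, against 9.31, 9.13 and 9.19 at 6 h, and in ALDH6B2 at 10.19, 10.04 and 9.90, against 8.33, 8.29 and 8.26. The carboxypeptidase-like scpl48 rose by 1.28. The vacuolar proteases GAMMA-VPE (0.38, interval 0.06 to 0.70), BETA-VPE (0.17) and ALPHA-VPE (-0.02) and the aspartic protease APA1 (0.46, adjusted p = 0.0805) were not called. Within the aldehyde dehydrogenase family 2 of 8 rose and 2 fell, the latter ALDH3F1 (-0.88) and ALDH10A8 (-0.53), whose call was lost in 9 of 14 alternatives.

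Of 49 names in the lipid list, 5 matched a gene in the comparison. ICL, the isocitrate lyase of the glyoxylate cycle, was at 3.25, 3.21 and 3.32 at 6 h and 5.28, 5.90 and 4.86 at 48 h (2.09, SE 0.23, limma adjusted p = 7.12e-05). Its 48 h arrays stood above its controls (2.74 to 3.52) too. SDP1, a lipase that breaks down stored oil, rose by 1.00 (SE 0.16). AIM1 of fatty acid oxidation had 0.22 (interval -0.13 to 0.58). With OLEO3 and PAP85, neither of them called, the list had 5 measured members.

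Sugar transport genes moved in both directions, with 8 of 23 higher and 3 lower and a median of 0.08. Their called share was 47.8%, against 23.6% of all genes. Besides SWEET2, the wall invertase cwINV6 rose by 1.39 (SE 0.17, limma adjusted p = 1.49e-04), from 7.02, 7.09 and 6.84 to 8.47, 8.10 and 8.56. The neighbouring sugar porter genes SFP1 and SFP2 rose by 1.25 and 1.19, the sucrose phosphate synthase ATSPS4F by 1.14, SWEET4 by 1.04, SWEET16 by 0.98 and SAG29, which is SWEET15, by 0.81. SWEET10 fell by 1.94 (SE 0.16), from 4.45, 4.46 and 4.13 to 2.52, 2.29 and 2.41, and SWEET1 by 0.95. The vacuolar transporter TMT2 had -0.50, a call lost in 8 alternatives. Of 16 measured SWEET symbols 4 rose and 2 fell, and 10 were not called, among them SWEET11, a sucrose exporter of the phloem parenchyma, which had high levels at both times (11.10, 10.98 and 11.14 and 10.87, 11.24 and 11.03) and an interval of -0.38 to 0.33.

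Nuclear photosynthesis genes were mostly lower at 48 h. Of 11 measured genes of the Calvin cycle, photorespiration and starch, 9 fell and 1 rose (12.1% of all genes fell), and the median was -1.01. PRK, the phosphoribulokinase, read 6.50, 6.31 and 6.96 at 6 h and 4.17, 4.47 and 3.91 at 48 h (-2.41, SE 0.21, limma adjusted p = 1.32e-05), with controls at 6.20, 6.31 and 6.36. SBPASE, the sedoheptulose bisphosphatase, was at 6.93, 7.21 and 7.28 and then 4.61, 5.25 and 4.33 (-2.41, SE 0.23). In PRK the controls sat with the 6 h arrays, and in SBPASE between the times (5.38 to 5.76). DPE1, which turns over maltotriose from starch, fell by 1.89 (SE 0.17), the photorespiratory reductase HPR by 1.39, the starch synthesis genes APL3, SBE2.2 and APL4 by 1.43, 1.01 and 0.71, and the Rubisco activase RCA by 0.84. TPI had -0.55 (adjusted p = 0.0235), and its call was lost without any 1 of 3 arrays. AMY1, an alpha-amylase, was the member that rose, from 5.21, 5.17 and 5.29 to 6.85, 6.99 and 7.13 (1.77, SE 0.15), above its controls (5.37 to 6.30).

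Of 11 measured genes of the photosystems, antenna and electron transport, 6 fell and 3 rose, with a median of -0.79. Their called share was 81.8%, against 23.6% of all genes. CURT1A (AT4G01150), which bends thylakoid membranes, had the largest fall, from 9.16, 9.005 and 9.20 to 6.19, 6.01 and 5.62 (-3.18, SE 0.18, limma adjusted p = 6.88e-07). Its 48 h arrays lay below its controls (7.39 to 7.98). PSBW, a small subunit of photosystem II, was at 10.10, 10.12 and 10.28 and then 8.49, 8.75 and 8.03 (-1.74, SE 0.19), and ATPC1, the gamma subunit of the chloroplast ATP synthase, at 8.01, 7.90 and 8.03 and then 6.56, 6.63 and 6.08 (-1.56, SE 0.18). PSAE-1 of photosystem I fell by 1.09, the antenna gene LHB1B2 by 0.95 and PSBY of photosystem II by 0.79. The 3 rises were small, in the antenna gene LHCB4.1 (0.58), the photosystem I subunit PSAN (0.58) and PGRL1B of cyclic electron flow (0.56). Of the 3, 0 were called without replicate 1 or without replicate 2 of 6 h and 1 in the fit to all 9 arrays, and their adjusted p was 0.0265 to 0.045. The 6 falls kept their calls in every alternative run.

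Leaf mesophyll markers moved with these lists, since all 6 measured markers belong to them. Their mean level was 7.56 to 7.88 in the 6 h arrays, 6.14 to 6.67 in the 48 h arrays and 7.90 to 8.11 in the controls. Of the 6 markers 5 fell (12.1% of all genes fell), while PSAN was called higher. Whether fewer cells of a type or less RNA of these genes per cell lay behind a lower value cannot be told apart in whole leaves. Markers of other sources were mostly dim. All 3 root markers, 7 of 10 pollen and flower markers, 4 of 5 guard cell and epidermis markers and 2 of 4 seed markers lay below the median level of all genes. Exceptions among the brighter ones were CLE44, a peptide gene of the vascular list (2.69, SE 0.24), the MADS genes AGL80 (1.69) and AGL18 (0.91), which rose, and FMA, a guard cell regulator, which fell by 0.58. CLE44 was at 4.999, 4.88 and 4.85 at 6 h and 7.50, 7.12 and 8.19 at 48 h, while CLE41, which encodes the same kind of peptide, had an interval of -0.36 to 0.36. Their part in the other results was not tested.

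Chlorophyll synthesis genes fell in 4 of 9 measured cases and rose in 1 (55.6% called, against 23.6% of all genes). CHLM, a methyltransferase of the magnesium branch, read 7.19, 7.27 and 7.18 at 6 h and 5.81, 5.98 and 5.71 at 48 h (-1.38, SE 0.15, limma adjusted p = 6.47e-05), with controls from 6.60 to 7.41. PORB, which reduces protochlorophyllide in the light, fell by 1.19 (SE 0.15), from 6.65, 6.69 and 6.60 to 5.43, 5.61 and 5.31, overlapping with its controls (5.03 to 5.56). HEME1, a uroporphyrinogen decarboxylase, fell by 0.87 (SE 0.17). GSA1 (-0.60) and the small rise of HEMA2 (0.46, adjusted p = 0.043) each lost their call in several alternatives. Chlorophyll breakdown was represented by NOL, a chlorophyll b reductase, which rose from 6.66, 6.72 and 6.63 to 7.46, 7.15 and 7.46 (0.69, SE 0.16, adjusted p = 0.00828), below its controls (8.07 to 8.12). Of the 5 measured senescence genes 2 rose, NOL and SAG29, while WRKY6 (-0.33 to 0.46), SAG101 (-0.30 to 0.34) and YLS5 (-0.45 to 0.46) had intervals of the difference that lay within 2-fold.

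Chloroplast-encoded genes were lower at 48 h in 32 of 63 cases and higher in 0, with a median difference of -0.59. Over all genes 12.1% were lower. All 63 lay in the brightest of the 5 bins of mean level, where 490 of 3310 genes were lower. The 4 core subunit genes of the plastid RNA polymerase all fell. For rpoC2 the values were 10.95, 10.98 and 10.77 at 6 h and 9.04, 9.11 and 8.97 at 48 h (-1.86, SE 0.15, limma adjusted p = 8.33e-06), and for rpoB 11.22, 11.22 and 10.86 and 9.60, 9.22 and 9.22 (-1.75, SE 0.18). The gene rpoC1 fell by 1.53 and rpoA by 0.83, the latter not called without replicate 1 of 6 h. In these 4 genes the groups did not overlap. The controls overlapped with the 48 h arrays for rpoC2 (9.01 to 9.27) and lay mostly between the times for rpoB (9.59 to 10.19).

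Genes of the small ribosomal subunit fell in 6 of 7 cases (median -1.16), while 12.1% of all genes fell. Among them rps2 went from 12.002, 11.88 and 11.49 to 10.64, 9.81 and 9.87 (-1.68, SE 0.24), and rps19 fell by 1.36 and rps16 by 1.24. In the NADH dehydrogenase-like complex 7 of 10 fell (median -0.70), led by ndhF, from 12.41, 12.22 and 11.98 to 10.71, 9.84 and 9.89 (-2.06, SE 0.24), and ndhH, from 12.002, 11.83 and 11.60 to 10.40, 10.11 and 10.22 (-1.57, SE 0.17). Of large ribosomal subunit genes 3 of 6 fell, rpl36 by 1.15, rpl16 by 0.66 and rpl14 by 0.58, and without replicate 1 of 6 h 1 of the 3 was called. Of photosystem I genes 0 of 5 were called, and of photosystem II genes 4 of 13 fell, namely psbZ (-1.67), psbM (-1.14), psbJ (-0.75) and psbL (-0.63), of which psbJ and psbL lost their calls without any 1 of several arrays. The psbA gene, which encodes the D1 protein of photosystem II, read 13.63, 13.57 and 13.47 at 6 h and 13.62, 13.53 and 13.61 at 48 h, and the interval of its difference was -0.29 to 0.36. Its values were among the highest on the arrays, and how far such signals can still show a difference was not tested. Of the 31 chloroplast genes above the median level of their kind 8 fell (median -0.18), against 24 of the 32 at or below it (median -0.90), and the part of signal level in the differences between functions was not tested.

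In the order of the reference table, from rps2 to rpoB, which stand next to each other, the differences were -1.68, -1.86, -1.53 and -1.75. The ATP synthase genes beside them had -0.71 for atpI, -0.21 for atpH, -0.23 for atpF and -0.51 for atpA, and the calls of atpI and atpA were lost after renewed quantile normalization. In the psbB group the members psbB, psbH, petB and petD had -0.06, -0.09, 0.05 and 0.03, with each interval within 0.45 of 0, while psbT had -0.62 with a wide interval of -1.35 to 0.11. Chloroplast neighbours can share a transcript, and their values then are not separate measurements. Without replicate 1 of 6 h 21 of the 63 genes were called in place of 32.

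**Figure D3:**
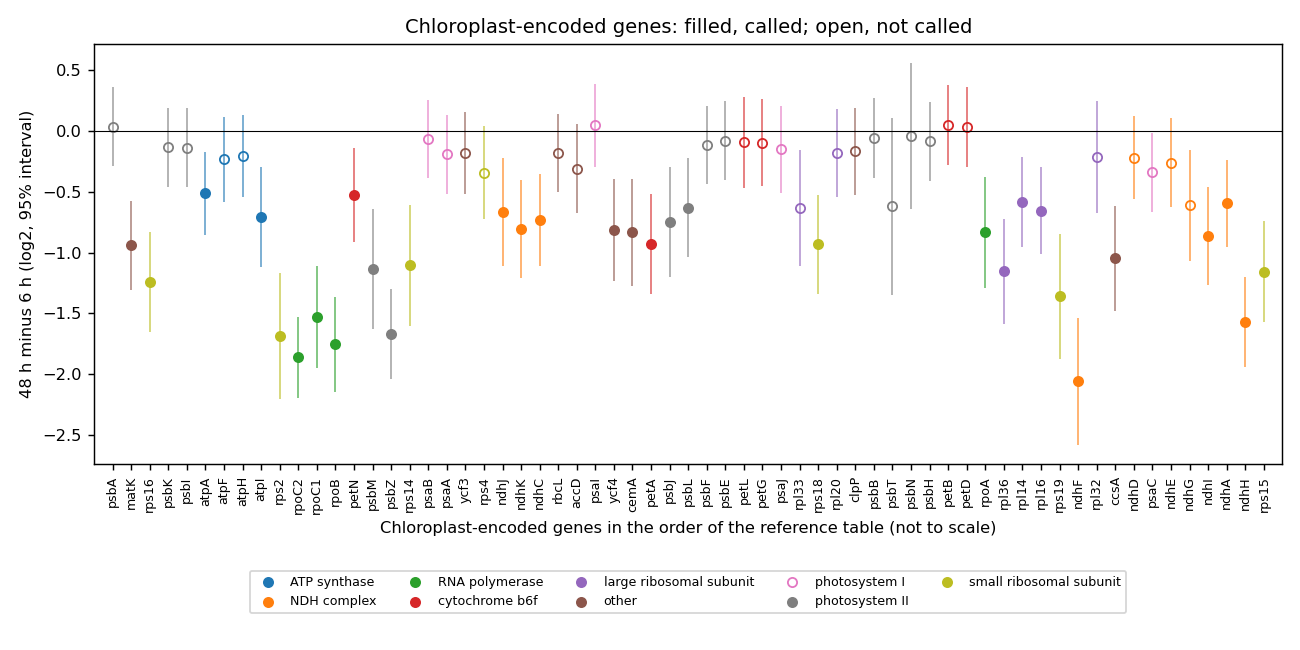
The difference of 48 h minus 6 h (log2) with its 95% interval for 63 chloroplast-encoded genes, in the order of the reference table and not to scale. Colours give the function, filled points passed the test (32, all lower) and open points did not, and the lowest run of neighbours is rps2, rpoC2, rpoC1 and rpoB.

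Abscisic acid and cold genes fell in 5 of 8 measured cases (12.1% of all genes fell) and rose in 0, with a median of -1.39. After KIN2, the dehydrin LTI30 read 5.05, 5.30 and 5.26 at 6 h and 2.72, 2.45 and 2.51 at 48 h (-2.64, SE 0.16, limma adjusted p = 1.02e-06), the latter still above its controls (1.65 to 2.33). COR15A, which protects chloroplast membranes in the cold, was at 6.41, 5.58 and 6.25 and then 3.20, 3.73 and 4.28 (-2.34, SE 0.28). ABR1, an AP2 type repressor of abscisic acid responses, fell by 2.04 (SE 0.17). COR15B was dim (1.85, 2.56 and 2.52 at 6 h) and lost its call without any 1 of 4 arrays. COR47 (0.31), LEA18 (0.29) and KIN1 (-0.63, adjusted p = 0.087) were not called, although KIN1 and KIN2 are close copies, so that their probes may not separate them fully.

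Cell wall loosening genes were lower in 11 of 29 cases and higher in 2, with a median of -0.24. The share called was 44.8%, against 23.6% of all genes. The pectin methylesterase ATPMEPCRB fell by 2.61 (SE 0.17, limma adjusted p = 2.01e-06), from 6.57, 6.60 and 6.56 to 4.04, 4.20 and 3.65, and the endoglucanase GH9C2 by 2.03 (SE 0.19), from 6.48, 6.34 and 6.81 to 4.21, 4.58 and 4.74. Of 13 alpha-expansins 4 fell, EXPA8, EXPA16 (-1.36), EXPA4 (-0.68) and EXPA9 (-0.77, lost in 2 alternatives), and of 10 XTH genes 3 fell, XTH33, XTH19 (-1.06) and XTH20, whose call was lost in 8 alternatives. The expansin-like EXLA1 (-1.31) and EXLA2 (-0.98) fell, while EXLB1 (0.92) and XTH29 (0.66) rose. Most members not called, such as EXPA7, EXPB1 and XTH21, had levels below the median of all genes at both times. The beta-tubulins moved the same way, with 4 of 5 lower, TUB5 (-2.37, SE 0.16), TUB7 (-1.55), TUB6 (-1.28) and TUB9 (-0.87).

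Auxin response genes rose in 4 of 18 cases and fell in 2 (33.3% called, against 23.6% of all genes). The conjugating enzymes of the GH3 family were the larger rises. Besides GH3.17, WES1, also named GH3.5, was at 8.35, 8.44 and 8.52 at 6 h and 10.80, 10.66 and 10.66 at 48 h (2.27, SE 0.15, limma adjusted p = 1.85e-06), with controls at 10.99, 11.48 and 11.35. GH3.3 rose by 0.84 (SE 0.15), to 8.99, 9.18 and 8.93 from 8.12, 8.17 and 8.30, and both times were far above its controls (3.60 to 4.96). GH3.17 and WES1 thus lay below their controls at 6 h and GH3.3 above. LBD16 was dim and its call was lost without any 1 of 5 arrays. IAA29 fell, as given above, and YUC2 of auxin synthesis by 0.79, a call lost without replicate 2 of 6 h. Of 8 Aux/IAA genes measured, IAA29 was called and 7 were not, of which IAA18 was the brightest and had an interval of -0.18 to 1.01.

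Light signalling genes fell in 3 of 4 measured cases (12.1% of all genes fell). PIF7, a phytochrome-interacting factor, was at 6.54, 6.65 and 6.88 at 6 h and 4.18, 5.09 and 5.30 at 48 h (-1.83, SE 0.26, limma adjusted p = 3.73e-04). HAT2, a homeobox gene of the shade response, fell by 0.94 (SE 0.22) and was not called in the fit to all 9 arrays, and FHL (-0.70, adjusted p = 0.0376) was not called after renewed quantile normalization, with array weights or without any 1 of 4 arrays. Of 46 names in the circadian clock list, 2 matched a gene in the comparison. GI, an evening gene, rose from 7.70, 7.82 and 7.42 to 9.26, 9.07 and 8.78 (1.39, SE 0.18, adjusted p = 2.09e-04), above its controls (7.69 to 8.35), and TIC had an interval of -0.34 to 0.33.

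Of 8 early immune genes 2 were called lower, a share near that of all genes (25% against 23.6% called), and the median of the list was 0.16. The 2 were the receptor kinase EFR, from 5.98, 6.06 and 6.03 to 4.78, 5.03 and 5.12 (-1.05, SE 0.16), and the ubiquitin ligase PUB23 (-0.86, SE 0.15). Its relatives PUB22 (-0.24 to 0.60) and PUB24 (-0.22 to 0.50) and the kinase BIK1 (-0.14 to 0.75) had intervals within 2-fold. Of 7 WRKY transcription factors 4 fell (12.1% of all genes fell) and 0 rose. WRKY41 was at 5.71, 5.32 and 5.64 and then 4.54, 4.05 and 4.09 (-1.33, SE 0.19), and WRKY47 at 10.76, 10.74 and 10.71 and then 9.60, 9.37 and 9.93 (-1.10, SE 0.17). The other falls were smaller, WRKY20 (-0.60) and WRKY42 (-0.64, lost in 4 alternatives), and WRKY22 (-0.33 to 0.43) and WRKY29 (-0.07 to 0.61) were bounded within 2-fold. Among 10 plant U-box ligases 2 rose, PUB25 (0.97) and PUB43 (0.84), and 3 fell, with PUB54 (-1.10) not called in the fit to all 9 arrays.

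Of 13 jasmonate and wounding genes 4 rose and 1 fell (38.5% called, against 23.6% of all genes). Apart from CHAT these were the defensin-like PDF1.4 (1.31, SE 0.21), the transcription factor MYC3 (1.15, SE 0.17) and JRG21 (0.93), an oxygenase that modifies jasmonate, and the methyltransferase JMT fell (-0.65, lost in 4 alternatives, among them without any 1 of the 6 h arrays). The marker defensins PDF1.2, PDF1.2b and PDF1.2c were not called and had levels below the median of all genes at both times. EIN3, a transcription factor of ethylene signalling, rose by 0.71 (SE 0.16, adjusted p = 0.00667), and ARL, a growth regulator in the same list of 3, fell by 0.92. Of 48 names in the salicylic acid list, 2 matched a gene in the comparison, and neither was called. Of 2 hypoxia genes both were called lower (12.1% of all genes were lower). They were HRA1 (AT3G10040, -0.91, SE 0.23), from 5.94, 6.21 and 5.57 to 5.35, 4.53 and 5.11 with controls at 3.003, 2.95 and 3.38, and the pyruvate decarboxylase PDC2 (-0.59). The call of PDC2 was lost after centring the arrays, after renewed quantile normalization and without any 1 of 5 arrays, and that of HRA1 without replicate 1 or without replicate 2 of 6 h, so that 0 of the 2 were called without either of those arrays. RR16, a cytokinin response regulator, was called alone (-1.13, SE 0.21) in its list of 8 brassinosteroid, gibberellin and cytokinin genes.

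Redox genes rose in 5 of 10 cases and fell in 1 (60% called, against 23.6% of all genes). GR1, the cytosolic glutathione reductase, was at 9.04, 9.06 and 8.71 at 6 h and 10.14, 9.93 and 9.88 at 48 h (1.05, SE 0.17, limma adjusted p = 8.30e-04), ATMDAR2, which recycles ascorbate, rose by 0.87, and PRXIIF, the mitochondrial peroxiredoxin, by 0.76. TAPX, the thylakoid ascorbate peroxidase, fell from 8.04, 7.98 and 8.01 to 6.90, 7.04 and 6.98 (-1.04, SE 0.15), and its stromal relative SAPX rose by 0.63. Without replicate 3 of 6 h 3 in place of 5 rose. Of 9 heat shock and unfolded protein genes BZIP28 rose (0.61), ROF2 (AT5G48570, -1.17) and ATERDJ3B (-0.74) fell, and the chaperone BIP1 was dim and not called. This was 33.3% called, against 23.6% of all genes and 39.2% of genes in the bin of mean level that holds the list's median (5.64). Without replicate 1 or without replicate 3 of 48 h 2 genes of this list rose in place of 1.

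Cytochromes P450 rose in 11 of 26 cases (11.6% of all genes rose) and fell in 0, all 11 of the CYP71B subfamily. How many of the 26 measured genes belong to this subfamily is not given here, so the rise is not shown to be particular to it. CYP71B20 was at 2.67, 2.60 and 2.098 at 6 h and 4.81, 4.49 and 4.32 at 48 h (2.09, SE 0.20, limma adjusted p = 2.56e-05), and its neighbour CYP71B19 at 5.02, 4.86 and 5.23 and then 6.63, 6.63 and 7.05 (1.73, SE 0.18). Genes of this subfamily lie in tandem and are alike in sequence, so that shared probes may make their values dependent. UDP-glycosyltransferases, which attach sugars to hormones and foreign compounds, rose in 14 of 55 cases by symbol and fell in 4. Their called share was 32.7%, against 23.6% of all genes and 31.8% of genes in the middle bin of mean level, where the median of these genes (4.32) lay. UGT71B5 (2.11) and UGT73B2 (1.67) had the larger rises, UGT76C2, which acts on cytokinins, fell by 1.53, and these 3 were named after their values were seen. Glutathione transferases rose in 5 of 13 cases and fell in 1 (46.2% called, against 23.6% of all genes). Without any 1 of the 6 h arrays or without replicate 2 of 48 h, 3 in place of 5 rose. GSTU15 rose by 1.67 (SE 0.19) from 2.23, 2.15 and 1.85 to 3.89, 3.95 and 3.40, above its controls (1.67 to 3.09), and GSTF3 by 1.64 (SE 0.16). GSTU20 fell by 1.46.

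Of 90 names in the nitrogen, sulfate and phosphate transport list, 2 matched a gene in the comparison. A further 13 genes of the NPF transporter family are described under other observations. The high-affinity nitrate transporter NRT2.5 fell by 2.42 (SE 0.19, limma adjusted p = 6.84e-06), from 8.18, 8.27 and 7.97 to 5.95, 5.87 and 5.34, still above its controls (4.01 to 4.31). The sulfurtransferase STR18 rose by 1.85 (SE 0.15), from 5.81, 5.76 and 5.68 to 7.63, 7.73 and 7.45, still below its controls (8.60 to 9.54). Both had moved part of the way between the 6 h arrays and the control arrays.

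**Figure D4:**
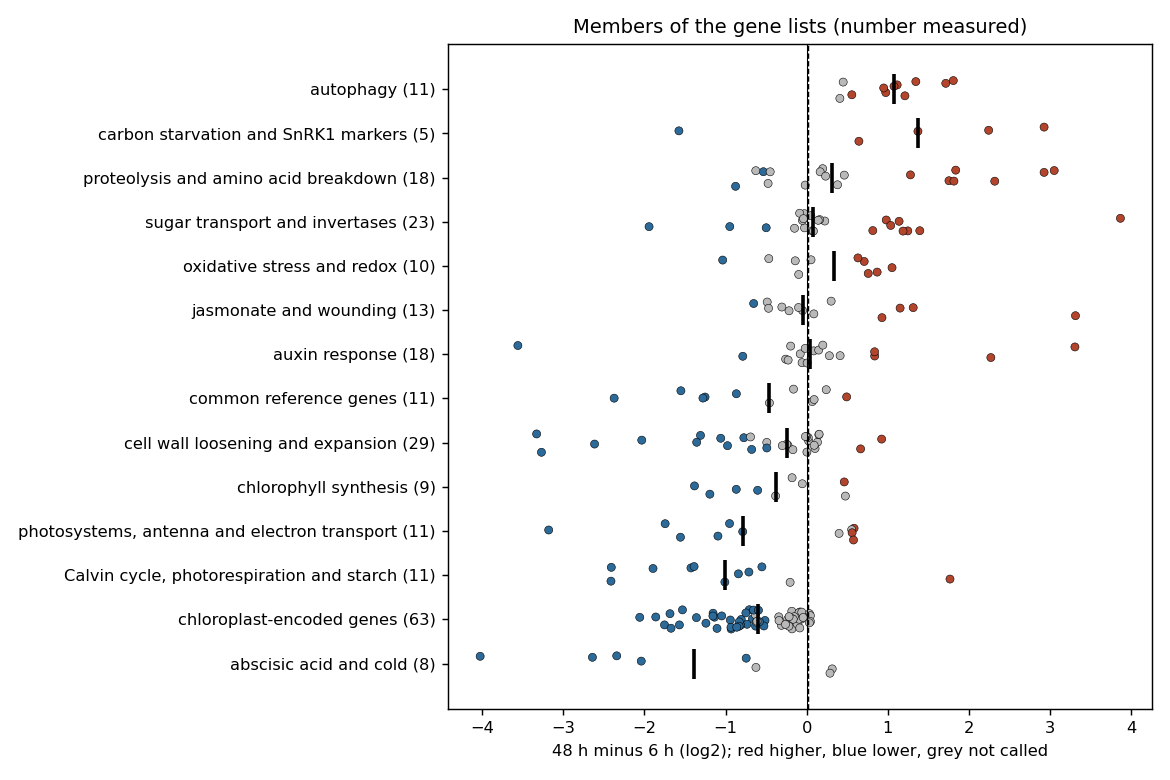
The difference of 48 h minus 6 h (log2) for each measured member of 14 gene lists, with red for called higher, blue for called lower and grey for not called. Black bars are list medians, the dashed line is the median of all genes at 0.02, and the autophagy list (9 of 11 higher) and the Calvin cycle list (9 of 11 lower) lie on opposite sides.

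Common reference genes, often used to scale expression, were among the genes that differed. Of 11 measured, 5 fell and 1 rose (54.5% called, against 23.6% of all genes). TUB5 was at 5.64, 5.61 and 5.90 at 6 h and 3.29, 3.53 and 3.21 at 48 h, with controls from 3.19 to 3.46. TUB6 was at 7.03, 6.76 and 6.90 and then 5.56, 5.81 and 5.48, ACT11 at 5.48, 5.55 and 6.02 and then 4.90, 4.10 and 4.30 (-1.25, SE 0.23), and TUB7 at 4.37, 3.66 and 4.07 and then 2.20, 2.93 and 2.32. UBC28 rose by 0.49 (SE 0.14, adjusted p = 0.0292), a call that was lost with the replicate block and without any 1 of 5 arrays, and that of TUB9 was lost without replicate 1 or without replicate 2 of 6 h. PEX4, also a ubiquitin-conjugating enzyme, had an interval of -0.10 to 0.58 and GAPC2 one of -0.85 to -0.07. ACT12 (-0.29 to 0.43), TUA6 (-0.40 to 0.58) and TUB1 (-0.66 to 0.34) were also bounded within 2-fold, and TUA6 and TUB1 were dim.

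Most genes were bounded. For 12681 of 16550 genes the 95% interval of the difference lay wholly within 2-fold, of which 11981 were not called and 700 were called with a smaller difference. For 655 genes the difference was neither called nor bounded. The smallest difference called was 0.45, and the median SE was 0.18. Among bright genes with a symbol, those with the narrowest intervals around 0 were TIC, SPI, GID1B and psbA. SPI, a membrane trafficking protein, was at 8.22, 8.50 and 8.15 at 6 h and 8.31, 8.27 and 8.29 at 48 h (interval -0.35 to 0.35). GID1B, a gibberellin receptor, was at 8.48, 8.46 and 8.37 and then 8.46, 8.43 and 8.45 (interval -0.31 to 0.33), while its controls were lower (7.42 to 8.001).

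Of 10357 pairs of nuclear genes next to each other in the reference table, both were called in 680, and the direction was the same in 400 of these (58.8%). For genes 2 places apart the share was 54.8%, and at the distances taken from 3 to 50 places it ranged from 49.1% to 53.7%. The differences of adjacent genes correlated with r of 0.08 over all pairs. The pair AT5G64100 and AT5G64110 had the largest shared rise. SWEET2 and its neighbour AT3G14780 (2.105) both rose, as did AT2G28960 and AT2G28970 (2.84 and 3.59), whereas AT1G23110 and AT1G23120 (-2.81 and 3.21) moved in opposite directions. Pairs were chosen for the size of their differences, and genes are not independent replicates.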

How the data were processed

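Total RNA of leaves was hybridised to 9 single-colour arrays, 3 per group. The deposited value table holds log2 signals of the authors, made with oligo, RMA and limma per the submitters' processing notes, which give no version, annotation or build (not given in the sources used here). No scanner files were used here. Names came from the probe-gene table, and 16411 of 16550 genes matched RefSeq.

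The 3 arrays of BrvC 48 h were tested against the 3 of 6 h with limma 3.58.1 in R 4.3.3 (lmFit, eBayes), without further normalization and with Benjamini-Hochberg adjustment over 16550 genes. The residual degrees of freedom were 4 and the prior ones 6.96, and the number of arrays limits the precision. Figures were drawn with matplotlib 3.10.9. Scripts were tested on simulated data.

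The members and gene lists were chosen with earlier results of these data known. Most listed names matched no gene in the comparison. For hypoxia 2 of 35 names matched, for the Calvin cycle list 11 of 100 and for the photosystem list 11 of 82. List counts thus describe the matched members and not whole pathways. Whether other members lie among entries without a name was not tested. Among genes that were called and whose groups did not overlap, the rule names the 8 largest rises and falls with a symbol and the 6 largest known by locus. Whether or not the groups overlap, it names the 3 largest called members of each list. It names the 2 largest called members of each family of at least 5 with a called share at least 1.5 times that of all genes. All reference genes and the 4 narrowest intervals around 0 among bright genes are named with no condition on the call. The rule gave 113 names, of which 104 were called. Other list members were named after their values were seen. List matches through a wrong synonym were left out (8).

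Deviations of same-numbered arrays from their group means correlated with 0.10, -0.05 and -0.01 for numbers 1 to 3, so the numbers were not taken to pair the samples. Planned promoter motifs were not analysed here.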

Additional observations from a re-analysis of the deposited data

How the results depend on the processing

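The 3914 calls became 2411 at an adjusted p under 0.01 (1114 higher, 1297 lower), where the threshold differs by construction. Over all 38408 entries 6693 were called (3884 lower). Of the 16722 entries with 1 gene 17.5% were called in that fit, against 23.6% of genes in the main fit. Both the number of tests and the spread that limma moderates differ there. The number of calls thus depends on which entries are fitted together. Of 8275 genes above the median level 5422 were bounded within 2-fold. Leaving out each array in turn gave 2903 to 3572 calls, 1340 to 1733 higher and 1554 to 1854 lower, 1566 to 1663 of at least 2-fold, and 11770 to 12444 bounded genes. With the replicate block 3794 genes were called, 3634 of them also without it, and UBC28 was the named gene whose call was lost (adjusted p = 0.056). The replicate number paired no samples by the correlation check. A fit to all 9 arrays called 3356 genes, renewed quantile normalization 4006 and limma's test against 1.5-fold 1088. The share of higher genes among the calls ranged from 42.0% over all entries to 57.1% after renewed quantile normalization, against 49.0%. Of 104 named genes called, 9 lost the call in at least 1 of 14 alternatives (PUB54, HAT2, HRA1, TUB9, FHL, rpl16, PDC2, FMA and UBC28), 0 reversed, and the cause was not tested. GAPC2, not called, was called with the level filter (adjusted p = 0.0496), with the intensity trend (0.0449) and without replicate 2 of 48 h (0.0498). Dim genes had few calls, and a low signal limits what can be seen there.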

Other observations

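Of 24 beta-glucosidases 4 rose and 3 fell (29.2% called), of 25 bZIP transcription factors 3 rose and 3 fell (24%), and of 32 serine carboxypeptidase-like genes 4 rose and 6 fell (31.2%), shares that lie near the 23.6% of all genes called and say nothing particular to these families. The shares of UDP-glycosyltransferases (32.7%), auxin response genes (33.3%) and heat shock genes (33.3%) were only slightly higher and are not read as particular either. BGLU16 (1.72) and BGLU45 (1.36), the latter like BGLU46 a hydrolase of lignin precursor glucosides, rose, and BGLU44 fell (-1.12). Without replicate 3 of 48 h 6 bZIP genes rose in place of 3. BZIP24 was at 6.26, 6.23 and 6.18 at 6 h and 7.98, 8.48 and 8.88 at 48 h (2.23), whereas BZIP34 was at 6.07, 5.84 and 6.22 and then 3.73, 4.05 and 3.56 (-2.26).

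Of 13 NPF genes, which encode nitrate, peptide and hormone transporters, 4 rose and 3 fell, a list added after its values were seen. Their called share was 53.8%, against 23.6% of all genes. NPF6.2 (AT2G26690) read 7.25, 7.34 and 7.68 at 6 h and 10.70, 10.92 and 10.92 at 48 h (3.42, SE 0.17), with controls from 11.28 to 11.63. The pirin gene PRN2 (AT2G43120), also picked after its value was seen, was higher at 48 h (1.06, SE 0.20), opposite to PRN.

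Entries of the value table that the probe-gene table does not list numbered 20927, and 3641 of them (17.4%) differed between the times when all 38408 entries were tested together, of which 1371 were higher and 2270 lower at 48 h. Of the 16722 entries with 1 gene 2928 were called in the same fit (17.5%), 1377 higher and 1551 lower. The median difference of the entries not listed was -0.08. These entries have no name here. Replicate 3 of 48 h had the lowest array weight (0.559) and the median SD over genes was 0.212 at 48 h and 0.170 at 6 h.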
